A study of Mus musculus with 12 samples.

Results

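*Gm15319* (ENSMUSG00000074449) is a predicted mouse gene, and its level is described here in the hippocampus of mice with and without a functional *Dek* gene. It was taken as a single gene by its identifier, 1 of the 26409 genes in the deposited table, because earlier results of the same 12 libraries had shown that its level follows genotype. The difference between genotypes therefore chose the gene, and it is given below as a description without a test. Each sex has 3 WT and 3 *Dek* cKO libraries, which makes 4 groups of 3. Mice called *Dek* cKO lack exons 3 and 4 of *Dek*, a gene of chromosome 13 that encodes a DNA-binding chromatin protein. The deletion was made with loxP sites and CMV-Cre, a recombinase active in all tissues including the germ line, after which Cre was bred out and the line was kept by mating heterozygous mice. The study's methods give a C57Bl/6 background and an age of 6 to 12 months, and the labels say that the mice had gone through behavioral testing before the hippocampus was collected. The female WT libraries have names that begin with C57 and all the other libraries have names that begin with CMV, so that sex and name prefix change together among the WT mice.

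The name of *Gm15319* is a placeholder given to genes found by annotation alone, and no function can be stated for its product with confidence. The gene lies in a stretch of chromosome 8 that holds the alpha-defensins, a family of antimicrobial peptides released by Paneth cells of the gut. Gene clusters of this kind grow by duplication of long segments, so neighboring genes are often copies of each other. RNA reads from such copies match several genes equally well, and a quantification program has to divide them, drop them or assign them to a single copy.

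In GENCODE M21, the annotation of GRCm38 (mm10), *Gm15319* spans chr8:20337664-20363210 on the minus strand and is annotated as protein coding. Its only transcript has 2522 bases in 10 exons. The coding bases run from 179 to 1231 of the transcript and encode 350 residues, and exon 10, with 1370 bases, holds most of the 3′ untranslated region. A blastn search of all GENCODE M21 transcripts found 9 other genes with at least 80% identity over at least 200 bases, and all 9 were on chromosome 8. *Gm21119* had 99.6% identity over 2522 bases and *4930467E23Rik* had 99.5% over 2514 bases. *Gm31371*, with a shorter transcript, had 99.2% identity over 2088 bases. These 3 genes are annotated as protein coding and lie on the plus strand within 1 Mb of *Gm15319*, at chr8:20614919-20640703, chr8:19729576-19753527 and chr8:19903392-19925713. A further pair of protein-coding relatives, *Gm9495* with 98.5% identity at chr8:69427980-69453565 and *Gm7697* with 97.9% at chr8:69481346-69522976, lies about 49.1 Mb away on the minus strand. The other relatives were the pseudogenes *Gm20778*, *Gm20946* and *Gm5373* and the noncoding *Gm35256*, each of which matched only part of the transcript. Of the 9 relatives, 0 were among the listed genes.

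The similarity leaves little sequence by which the gene could be told from its copies. Of the 2492 stretches of 31 bases in the transcript, 93 (3.73%) occurred in no other annotated gene, while 1995 (80.1%) occurred in at least 3 other genes. The unshared stretches form 3 runs of 31, the first in coding bases 886 to 946 of exon 5 and the others at bases 1456 to 1516 and 2220 to 2280 of exon 10. By the same count 81.5% of the stretches of *Dek* were unshared. The 61 bases of the coding run, at chr8:20356941-20357001 (GRCm38, minus strand), are shown with the matching bases of the relatives because they are the only coding bases that hold unshared stretches. They are written 5′ to 3′ as in the GENCODE M21 transcripts, with capitals at bases that differ between *Gm15319* and a relative.

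Gm15319: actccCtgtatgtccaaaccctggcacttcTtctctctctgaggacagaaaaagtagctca
Gm21119: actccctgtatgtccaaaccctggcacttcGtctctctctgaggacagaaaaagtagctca
4930467E23Rik: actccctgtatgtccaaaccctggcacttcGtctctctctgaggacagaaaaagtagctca
Gm31371: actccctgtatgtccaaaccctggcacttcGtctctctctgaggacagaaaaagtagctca
Gm9495: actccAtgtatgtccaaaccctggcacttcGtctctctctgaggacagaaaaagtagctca
Gm7697: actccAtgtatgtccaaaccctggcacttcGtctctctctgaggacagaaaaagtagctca

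Counted from 1 at the 5′ end of these bases, with the base of *Gm15319* first, the difference is T31G in *Gm21119*, *4930467E23Rik* and *Gm31371*, and C6A with T31G in *Gm9495* and *Gm7697*. A single base thus separates *Gm15319* from its 3 nearby protein-coding copies in this run. The plot of shared stretches shows how little of the transcript is unshared.

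**Figure D1:**
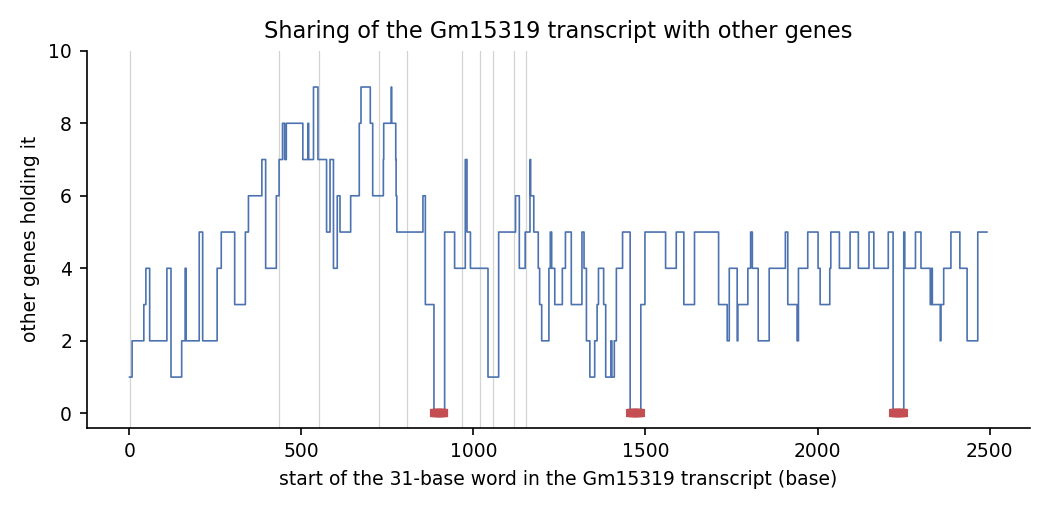
Number of other GENCODE M21 genes (vertical axis) that hold each 31-base stretch of the *Gm15319* transcript, by the stretch's first base (horizontal axis, in bases). Grey lines mark the first base of each exon and red marks the 93 stretches held by no other gene, which fall in 3 short runs, while 80.1% of the stretches are held by at least 3 other genes.

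The bases before the start site were alike for part of the family. The RefSeq promoter table (GRCm38.p6) held 6 of the 10 genes of the family. The 250 bases before the RefSeq start of *Gm15319* lie at chr8:20363203-20363452 on the minus strand. They are shown because the same 250 bases precede *Gm21119* and *4930467E23Rik* without a difference. Capitals mark ATTGG, the reverse complement of the motif CCAAT, and whether it acts in a promoter was not tested.

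Gm15319: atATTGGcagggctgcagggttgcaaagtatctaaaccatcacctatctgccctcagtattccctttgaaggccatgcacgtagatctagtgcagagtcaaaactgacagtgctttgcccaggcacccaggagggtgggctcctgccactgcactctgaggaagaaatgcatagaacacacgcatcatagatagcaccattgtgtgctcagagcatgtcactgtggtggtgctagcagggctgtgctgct

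The motif CCAAT, searched on both strands, occurred once at base 3, and 33.8% of the 32851 promoter windows of the table hold it. Neither TATAAA nor GGGCGG, held by 12.4% and 32.7% of those windows on either strand, was found in these 250 bases. The upstream bases of *Gm7697* aligned over 194 or 195 bases for its 2 listed starts, with 96.9% identity, while those of *Gm9495* and *Gm5373* gave no alignment. Since nearly all of its transcript is shared, RNA from *Gm15319* and from its unlisted copies cannot be told apart in this table. All values below are those of the row *Gm15319*.

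The libraries were checked before the values were compared. *Dek* was between 44.2 and 51.9 TPM in the 6 WT libraries and between 5.55 and 9.25 TPM in the 6 *Dek* cKO libraries, so every library followed its genotype label. TPM is a level per transcript length scaled to a common total in each library, and the listed genes sum to between 825750 and 845553 TPM per library. A pair of libraries went against the sex in their labels. The Y-linked gene *Eif2s3y* reached 72.7 TPM in female cKO replicate 3 and 0.111 TPM in male cKO replicate 1, against at most 0.993 TPM in the other female libraries and at least 69.0 TPM in the other male libraries. The genotype differences of *Gm15319*, of its neighbors and of *Mau2* are given with and without this pair. All 42 markers of hippocampal neurons, choroid plexus, meninges, blood, endothelium, microglia, astrocytes and oligodendrocytes had a mean of at least 1 TPM. None of them was called between genotypes by limma, against 0.148% of all genes tested, and 0 had an unadjusted p under 0.05, against 6.64% of all genes tested. The summed level of the choroid plexus markers varied most, from 72.1 to 3049 TPM in WT and from 45.8 to 4458 TPM in *Dek* cKO libraries. The astrocyte markers summed to between 554 and 637 TPM in WT libraries. In *Dek* cKO libraries their sum ranged from 537 to 1631 TPM, with a median of 596 TPM. The part of either sum in the level of *Gm15319* was not tested. In bulk tissue, a change in the number of cells that express a gene and a change in RNA per cell cannot be told apart.

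*Gm15319* was expressed at a low level in WT hippocampus and at more than 3 times that level in *Dek* cKO hippocampus. The female WT libraries had 1.81, 1.60 and 1.18 TPM, and the male WT libraries had 1.5, 1.56 and 1.64 TPM. The female *Dek* cKO libraries had 5.48, 5.23 and 5.17 TPM, and the male *Dek* cKO libraries had 4.65, 6.24 and 5.40 TPM. All 6 *Dek* cKO values lay above all 6 WT values, and the lowest *Dek* cKO library, at 4.65 TPM, was 2.56 times the highest WT library, at 1.81 TPM. Of the 18197 genes tested, 0.572% had such a complete separation with *Dek* cKO higher, a share from which nothing is read here because the gene was chosen on this contrast. The mean was 1.55 ± 0.209 TPM (SD, n = 6) in WT and 5.36 ± 0.518 TPM (SD, n = 6) in *Dek* cKO libraries, a ratio of 3.46. On the log2(TPM + 0.1) scale the difference was 1.73 (SE 0.12), against a median of 0.02 over all genes tested.

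**Figure D2:**
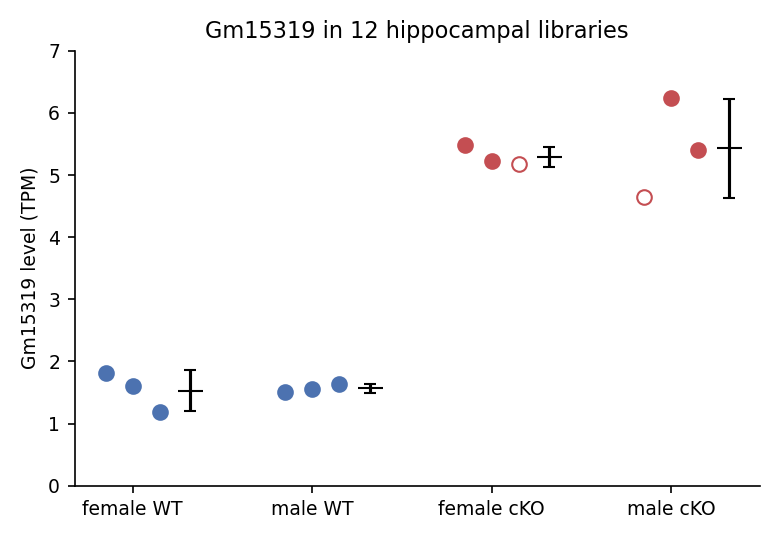
Level of *Gm15319* in TPM (vertical axis) in each of the 12 libraries, by group. Points are libraries, with open symbols for the 2 libraries whose Y-linked genes go against the labelled sex, and the black bars give the mean ± SD of 3 libraries, with every *Dek* cKO library at or above 4.65 TPM and every WT library at or below 1.81 TPM.

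The rank of the gene moved with its level. The WT mean of *Gm15319* was higher than that of 27.0% of the genes tested, and its *Dek* cKO mean was higher than that of 40.9%. The coefficient of variation was 13.5% over the WT libraries and 9.7% over the *Dek* cKO libraries. In TPM the SD was largest in male *Dek* cKO mice (5.43 ± 0.793 TPM, SD, n = 3) and smallest in male WT mice (1.57 ± 0.0674 TPM, SD, n = 3). Relative to the mean, the spread was widest in female WT mice (1.53 ± 0.323 TPM, SD, n = 3). By that measure it was narrowest in female *Dek* cKO mice (5.29 ± 0.164 TPM, SD, n = 3). Without the pair of libraries of conflicting sex, the 4 remaining *Dek* cKO libraries had between 5.23 and 6.24 TPM, and the log2 difference was 1.79 (SE 0.14). Male cKO replicate 1, a library of that pair, had the lowest *Dek* cKO value.

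The study asked whether *Dek* loss acts differently in females and males, and the sexes were compared for *Gm15319*. The gene was chosen because its level follows genotype in these libraries, which favors a like difference in both sexes. A small interaction is therefore given as a description, and nothing is concluded from it. The ratio of the means was 3.46 in females and 3.47 in males, and the log2 differences were 1.75 (SE 0.18) and 1.72 (SE 0.18), or 1.76 and 1.83 (SE 0.21 each) without the conflicting pair. The interaction, the male difference minus the female difference, was −0.02 with a 95% confidence interval from −0.58 to 0.54 (limma, adjusted p = 0.999). The interval still allows a difference between the sexes of up to about 0.58 on the log2 scale. Of all genes tested, 0% were called in the interaction by limma and 4.23% had an unadjusted p under 0.05. Without the pair of conflicting libraries the interaction was 0.064 (SE 0.29, adjusted p = 0.966), and 2 genes were called in it.

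The WT mice of both name prefixes were compared in the same way. Male WT (CMV) and female WT (C57) libraries had 1.57 ± 0.0674 and 1.53 ± 0.323 TPM (SD, n = 3 each). The log2 difference was 0.05 with a 95% confidence interval from −0.35 to 0.45 (limma, adjusted p = 1), in a comparison that called 0% of the genes, with 3.63% at an unadjusted p under 0.05. The 4 groups share a single estimate of the spread, which includes the conflicting pair. Even *Eif2s3y*, at a mean of 0.481 TPM in female WT and 83.2 TPM in male WT libraries, was not called. Nothing is therefore read from the 0%. Without the pair 4 genes were called. The difference of *Gm15319* stayed at 0.05, as it must, because both libraries of the pair are *Dek* cKO. With the CMV-named libraries alone, a choice made after seeing the data, the difference between genotypes was 1.71 (SE 0.13). Sex and name prefix cannot be told apart among the WT mice.

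The genes around *Gm15319* were then examined by position. GENCODE M21 places 69 other genes within 1 Mb, of which 37 are listed in the table. Of these 37, 19 carry a defensin symbol, and 14 of the 19 were listed at 0 in every library. A mean of at least 0.1 TPM was reached by 7 of the 37, and 23 were listed at 0 in all 12 libraries. Of the 30 that were not tested, *Defb7* and *Defa21*, which encode defensins, and the predicted gene *Gm15056* reached 0.561, 0.425 and 0.206 TPM, each in 1 library. None of the 7 tested genes was called between genotypes by limma at an adjusted p under 0.05 and a fold change over 1.2, against 0.148% of all genes tested. An unadjusted p under 0.05 was found for *2610005L07Rik*, *6820431F20Rik*, *Defa-ps15* and *Defb33*, 4 of the 7, against 6.64% of all genes tested. All 4 were higher in *Dek* cKO libraries, and the median log2 difference of the 7 was 0.27, against 0.02 over all genes tested. *Defb33* passed the minimum of 0.1 TPM only through its *Dek* cKO libraries and could only come out higher. This does not hold for *2610005L07Rik*, *6820431F20Rik* and *Defa-ps15*. The count is given as a description, and why these genes were higher was not tested. For none of the 7 did the genotypes separate without overlap. Of all genes tested, 0.572% separated with *Dek* cKO higher and 0.104% with *Dek* cKO lower. Among only 7 genes such shares would seldom show, so nothing is read from this count.

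*2610005L07Rik*, a transcribed pseudogene on the same strand, ends 22.6 kb before the start of *Gm15319* and is its nearest listed neighbor. Its level was 55.0, 54.5 and 60.4 TPM in female WT and 51.6, 60.4 and 64.3 TPM in male WT libraries. In *Dek* cKO libraries it was 72.9, 65.8 and 74.6 TPM in females and 65.8, 63.0 and 76.3 TPM in males. A single *Dek* cKO library, at 63.0 TPM, lay below the highest WT library, at 64.3 TPM. The means were 57.7 ± 4.73 and 69.7 ± 5.55 TPM (SD, n = 6), a log2 difference of 0.27 with a 95% confidence interval from 0.13 to 0.41. It did not pass the test (limma, adjusted p = 0.227), and without the conflicting pair the difference was 0.27 (adjusted p = 0.39).

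*6820431F20Rik*, also a transcribed pseudogene on the same strand, begins 40.2 kb beyond the end of *Gm15319*. It was the most abundant of the 7, at 139 ± 8.48 TPM in WT and 151 ± 7.46 TPM in *Dek* cKO libraries (SD, n = 6). WT libraries ranged from 131 to 154 TPM and *Dek* cKO libraries from 139 to 159 TPM, so the genotypes overlapped between 139 and 154 TPM. The log2 difference was 0.12 with a 95% confidence interval from 0.02 to 0.22 (limma, adjusted p = 0.673). Without the conflicting pair the difference was 0.16 (adjusted p = 0.5), and with the CMV-named libraries alone it was 0.06. *Gm6483*, an unprocessed pseudogene 639.9 kb away on the plus strand, was at 5.03 ± 0.707 TPM in WT and 5.67 ± 0.439 TPM in *Dek* cKO libraries (SD, n = 6). Its log2 difference was 0.18 with a 95% confidence interval from −0.05 to 0.40 (limma, adjusted p = 0.846), and it was 0.15 without the conflicting pair. On this scale the interval of each of these 3 genes ends at or below 0.41. The intervals of the other tested neighbors are wider, such as 0.30 to 3.36 for *Defa-ps15* and −1.10 to 0.94 for *Gm16425*. *Gm15319* differed by 1.73 but was chosen on this contrast, so nothing is read from its larger difference.

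**Figure D3:**
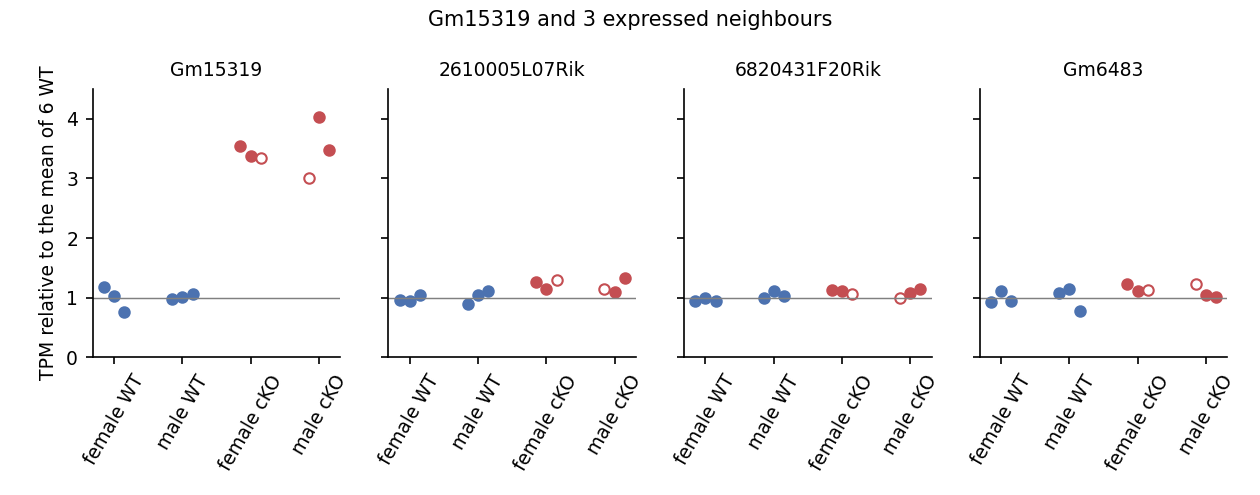
TPM relative to the mean of the 6 WT libraries (vertical axis) for *Gm15319* and for the 3 neighbors with a mean above 1 TPM in both genotypes, by group. Points are libraries, and open symbols mark the 2 libraries of conflicting sex. Only the panel of *Gm15319*, which was chosen on this contrast, shows *Dek* cKO points clear of all WT points.

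These 3 pseudogenes are related to each other and to *Cdh11*, which encodes a cell adhesion protein of the cadherin family. *2610005L07Rik* and *6820431F20Rik* shared 99.7% identity over 794 bases, and *Gm6483* matched *Cdh11* at 96.0% identity over 753 bases. How reads were divided among them was not tested. The shares of 31-base stretches held by no other gene were 68.4% for *2610005L07Rik*, 78.2% for *6820431F20Rik* and 35.5% for *Gm6483*. *Cdh11* itself was at 29.0 ± 1.19 TPM in WT and 27.5 ± 1.83 TPM in *Dek* cKO libraries (SD, n = 6), a log2 difference of −0.08 (limma, adjusted p = 0.861). Of 20 cadherin genes, all were tested, 0 were called, against 0.148% of all genes tested, none had an unadjusted p under 0.05, against 6.64% of all genes tested, and the median log2 difference was −0.03.

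The other tested neighbors were near the limit of detection. *Defb33*, which encodes a beta-defensin, was listed at 0 in all 6 WT libraries and in 3 *Dek* cKO libraries, and at 0.303, 0.628 and 0.564 TPM in female cKO replicates 2 and 3 and male cKO replicate 2. *Defa-ps15*, a defensin pseudogene, was above 0 in 2 WT and 5 *Dek* cKO libraries, with highest values of 0.514 and 2.12 TPM. Its log2 difference was 1.83 (SE 0.71), or 2.36 (SE 0.67, limma, adjusted p = 0.429) without the conflicting pair. *Rpl19-ps11*, a ribosomal protein pseudogene, ranged from 0 to 2.02 TPM in WT and from 0 to 2.68 TPM in *Dek* cKO libraries. Only 3.2% of its 31-base stretches were held by no other gene. *Gm16425* was between 0 and 0.603 TPM in WT and between 0.024 and 0.263 TPM in *Dek* cKO libraries. The adjusted p of these 4 genes was between 0.664 and 0.995 (limma). Without the conflicting pair the differences of *Rpl19-ps11* and *Gm16425* were 1.12 and −0.20, and *Defb33* fell below the minimum. The plot of neighbors by distance shows the wide errors of these genes beside the narrow ones of the expressed pseudogenes.

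**Figure D4:**
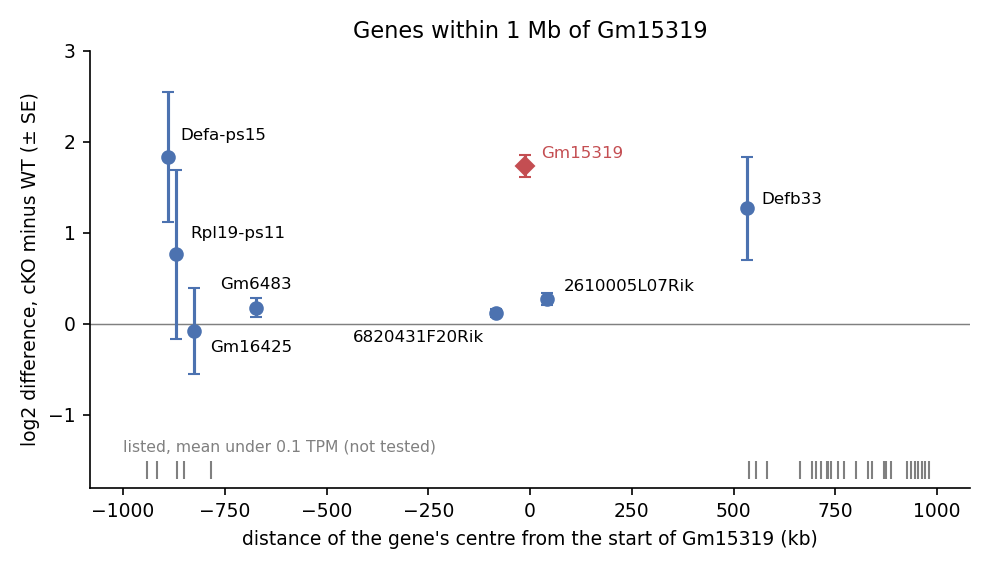
Log2 difference between *Dek* cKO and WT libraries (vertical axis, ± SE, on log2(TPM + 0.1), 6 libraries each) for *Gm15319* (red) and its 7 tested neighbors (blue), by the distance in kb of the gene's centre from the start of *Gm15319*. Grey ticks mark the 30 listed neighbors under the mean of 0.1 TPM, and no neighbor was called.

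The part of chromosome 8 with the distal relatives was examined after the data had been seen. Within 1 Mb of *Gm9495*, *Gm7697*, *Gm5373* or *Gm35256* there are 129 listed genes, of which 120 were tested. A single gene of the 120 was called (0.833%), against 0.148% of all genes tested. It was *Mau2*, which encodes a partner of the cohesin loader, 0.493 Mb from *Gm7697*. *Mau2* had between 18.5 and 22.0 TPM in WT libraries and between 24.5 and 29.4 TPM in *Dek* cKO libraries. Its log2 difference was 0.40 (SE 0.06, limma, adjusted p = 0.00959), and without the conflicting pair it was 0.39 with an adjusted p of 0.0893. The call was also lost with the CMV-named libraries alone, where the difference was 0.35 (adjusted p = 0.223). An unadjusted p under 0.05 (limma) was found for 10 of the 120 (8.33%), against 6.64% of all genes tested. Of the 120, 2 separated the genotypes with *Dek* cKO higher and 0 with *Dek* cKO lower, against 0.572% and 0.104% of all genes tested. These 2 were *Mau2* and *Cilp2*, which encodes a cartilage matrix protein and was named after its values were seen. *Cilp2* was at 0.844 TPM in WT and 1.2 TPM in *Dek* cKO libraries on average (limma, adjusted p = 0.596). Nothing is read from these counts.

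The lists that share a feature with *Gm15319* were counted as well. Of 4675 listed genes named only by Gm and a number, 1646 were tested. Apart from *Gm15319*, 0 were called by limma, against 0.148% of all genes tested. An unadjusted p under 0.05 was found for 119 (7.23%), against 6.64% of all genes tested. Of these others, 6 were separated with *Dek* cKO higher and 1 with *Dek* cKO lower, against 0.572% and 0.104% of all genes tested. Of 70 listed defensin genes and pseudogenes, 15 were tested and 0 were called, against 0.148% of all genes tested. An unadjusted p under 0.05 was found for 2 (13.3%), against 6.64% of all genes tested. These 2 are the neighbors *Defa-ps15* and *Defb33* counted above, so the count adds nothing to that of the neighbors. Genes known to differ between C57BL/6 substrains were compared because the library names carry different prefixes. Of these, *Nnt*, *Wdfy1*, *Ide* and *Fgfbp3* were listed. Between genotypes, and between male WT (CMV) and female WT (C57) libraries, 0 of the 4 were called by limma or had an unadjusted p under 0.05. Of all genes tested, 0.148% and 0% were called in these comparisons, and 6.64% and 3.63% had an unadjusted p under 0.05. Among only 4 genes such shares would seldom show, so nothing is read from this count. *Nnt*, which encodes a mitochondrial transhydrogenase that is disrupted in C57BL/6J mice, was at 9.46 ± 1.30 TPM in WT and 11.6 ± 3.03 TPM in *Dek* cKO libraries (SD, n = 6, limma, adjusted p = 0.818). Its highest value, 17.2 TPM, was in female cKO replicate 3, a library of the conflicting pair. *Fgfbp3*, which encodes a protein that binds fibroblast growth factors, was listed at 0 TPM in female WT replicate 2 and 0.0001 TPM in female cKO replicate 1, and was between 3.36 and 6.62 TPM in the other 10 libraries. The low values thus came from 1 library of each genotype and of each name prefix.

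The genes whose values over the 12 libraries were most like those of *Gm15319* were ranked by Pearson's r of log2(TPM + 0.1), as a description. All points of such a comparison share the 2 genotypes, so genes that separate them rank high whatever else they share. Of the 10 highest ranked genes, 9 are reported here. They were *Serpinb6e*, a serine protease inhibitor gene (0.954), *Fam83h*, a gene of enamel formation (0.953), *Perm1*, a regulator of mitochondrial genes in muscle (0.953), and *Col7a1*, the collagen of anchoring fibrils in skin (0.947). *A3galt2*, a glycolipid galactosyltransferase (0.941), *Ovgp1*, an oviduct glycoprotein (0.936), *Ccl25*, a chemokine of thymus and gut (0.926), *Mau2* (0.925) and *Piwil2*, a germ line protein that binds small RNA (0.924), were the others. Each of the 9 had every *Dek* cKO library above every WT library, as 0.572% of all genes tested did. The ranking favors such genes, so nothing is read from this count.

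Within the groups the likeness was smaller. The correlation of the deviations from the 4 group means was 0.366 for *Serpinb6e*, 0.549 for *Fam83h*, −0.361 for *Col7a1* and −0.123 for *A3galt2*, over 12 libraries. The size of the difference varied among the 9 genes. *Col7a1* went from 1.33 ± 0.325 to 6.86 ± 1.01 TPM (SD, n = 6), while *Ovgp1* went from 13.0 ± 0.909 to 20.1 ± 1.79 TPM (SD, n = 6). *Ccl25* was at 7.20 ± 1.21 TPM in WT and 15.5 ± 3.22 TPM in *Dek* cKO libraries (SD, n = 6), and lies on chromosome 8 as *Mau2* does. The 9 genes differ from *Gm15319* in how far their sequence is shared. Of their 31-base stretches, between 63.7% (*Ovgp1*) and 100% occurred in no other gene, against 3.73% for *Gm15319*.

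**Figure D5:**
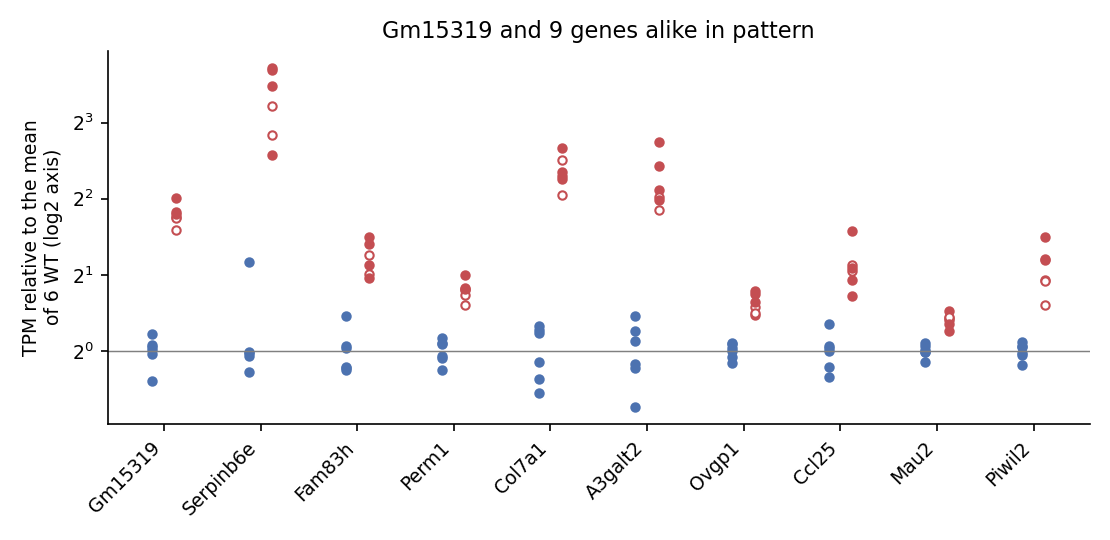
TPM relative to the mean of the 6 WT libraries (vertical axis, log2 scale) for *Gm15319* and 9 of the 10 genes with the highest Pearson's r to it over 12 libraries. Blue points are WT and red points *Dek* cKO libraries, open symbols mark the 2 libraries of conflicting sex, and a WT library with *Serpinb6e* at 0 is not drawn. For each gene the red points lie above the blue ones, a pattern that the ranking favors.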

How the data were processed

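Hippocampal RNA of 12 mice was measured by poly-A selected, stranded, paired-end sequencing. The authors deposited TPM per gene and library. The study's methods name STAR, Salmon and GRCm38, and the submitters' processing notes name kallisto and mm10. Which program wrote the table, and how reads of multicopy genes were divided, is not given in the sources used here. Read counts are not kept in TPM, so counting error is not given, and DESeq2, which the authors used, was not run.

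All tests used log2(TPM + 0.1), a scale on which low genes differ by less than their TPM ratio. The 18197 genes whose mean reached 0.1 TPM were fitted with limma 3.58.1 (R 4.3.3, trended prior variance, two-sided), with 2 groups of 6 libraries or 4 groups of 3. Benjamini-Hochberg adjustment ran over all genes tested, and calls needed a fold change over 1.2 and an adjusted p under 0.05. Libraries are single mice as far as the labels tell. Alternatives were 0.5 or 1 TPM added, no minimum or one of 1 TPM, 2 rescalings, no trend, a sex covariate, a replicate block, fits on 1 sex, and libraries left out. The limma fits of the genotype difference and of the interaction were tested on simulated data, and the other steps were not.

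GENCODE M21 held the Ensembl IDs of 25245 of the 26409 rows. Transcripts were compared with blastn 2.17.0, and 31-base stretches were counted on both strands in all GENCODE M21 transcripts. Upstream bases are from RefSeq. Tables were made with Python 3.11.15 and pandas 2.3.3.

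*Gm15319*, the gene lists and the markers were chosen with earlier results of these data known. Named genes are *Gm15319*, *Dek*, *Eif2s3y*, listed genes within 1 Mb that reached 0.1 TPM, transcript relatives, the 10 genes of highest Pearson's r (1 of them is not reported here), and members of the lists. *Cilp2* was named after its values were seen. *Entpd4* of the substrain list is not among the listed genes.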

Additional observations from a re-analysis of the deposited data

Results flagged for a closer look

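The values of *Gm15319*, of its 7 tested neighbors and of 9 genes most like it were examined for single libraries far from the other 5 of their genotype, which gave 34 groups of 6 libraries. A single value stood apart. *Gm16425* was at 0.603 TPM in female WT replicate 1, against 0 to 0.132 TPM in the other 5 WT libraries, a gap of 0.78 of the range where 0.625 is the limit. Chance flags about 1 in 20 such groups. No value of *Gm15319* stood apart in either genotype.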

How the results depend on the processing

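The genotype difference of *Gm15319*, a description because it chose the gene, lay between 1.32 (1 TPM added) and 1.79 on the log2 scale over both sexes under the alternatives run, and between 1.66 and 1.78 with each library left out in turn. With only the 6 libraries of that sex it was 1.75 in females and 1.72 in males. Each library left out gave 1.58 to 1.87 in females and 1.62 to 1.83 in males. The interaction, near 0, ranged from −0.15 to 0.14 and changed sign in 4 of these 12 fits, and was 0.064 without the conflicting pair. The difference between male and female WT ranged from −0.12 to 0.18, below 0 only without female WT replicate 3. No neighbor was called under any alternative. *Gm16425*, at −0.08, ranged from −0.30 to 0.26 with each library left out and turned to 0.26, 0.059 and 0.065 without female WT replicate 1, female cKO replicate 1 or male cKO replicate 3, and to 0.36 with the CMV-named libraries, a choice made after seeing the data. The 27 genes called over both sexes became 13 with no filter, 16 without the conflicting pair, 8 with the CMV-named libraries, and 13 to 27 with each library left out (15, 13 and 17 without female cKO replicates 1 and 2 and male cKO replicate 1). Same-numbered replicates did not deviate together (correlations from −0.04 to 0.04), so the numbers share only a label. With the replicate block 3 genes were called, and *Gm15319* differed by 1.73 over both sexes, by 1.75 in females and by 1.72 in males. Within each sex, *Gm15319* missed the rule for a call with the block and with only the 6 libraries of that sex. It also missed that rule in 2 of the 12 fits per sex with a library left out. With the block the calls of *Mau2* (adjusted p = 0.175), *Serpinb6e*, *Fam83h*, *Perm1*, *A3galt2*, *Ovgp1* and *Ccl25* were lost, and *Fam83h* was also lost without the conflicting pair (adjusted p = 0.0577). Neither median ratio rescaling nor quantile normalization changed the direction of *Gm15319*, its 7 tested neighbors or the 9 genes most like it.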
